A study of Rattus norvegicus with 8 samples.

Results

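The genes described here encode the molecular motors of the rat: 12 myosin, 20 kinesin and 14 dynein genes, 46 in all, measured by 64 probes among the 41012 probes and 12206 named genes of the array. They were taken as every gene whose probe, matched by RefSeq accession, carries a symbol that starts with Myo or Kif and a digit, or with Kifc, Dync or Dynl. A single probe reported 31 of the genes, 2 probes reported 12 genes and 3 probes reported 3 genes. The hippocampus of 8 male Wistar rats was profiled, 1 array per rat. The 4 CCH rats ate the standard laboratory feed CE-2 with 0.1% coral calcium hydride, a coral-derived calcium powder loaded with hydrogen, and the 4 control rats ate CE-2 alone. In both groups feeding began at 6 weeks of age and the rats were killed at 8 weeks, and the labels name no other difference in genotype or agent. The study's question was what this feed changes in hippocampal gene expression, with antioxidant ability in mind.

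Myosins move along actin filaments, while kinesins and dyneins move along microtubules. In neurons most transport kinesins carry cargo towards the axon tip and cytoplasmic dynein carries it back to the cell body, and class V myosins take vesicles over the last stretch, into dendritic spines and along the actin under the membrane. Other members work in dividing cells, on the mitotic spindle, or in cilia, which in the hippocampal region are motile on ependymal cells.

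All 64 probes had a value on all 8 arrays and entered the fit, and 60 of them were well above background on every array. The 4 exceptions were the probe of Myo5c (2 of 4 CCH and 3 of 4 control arrays), that of Kif2c (4 of 4 CCH and 3 of 4 control arrays), the dimmer Kif27 probe (3 of 4 CCH and 4 of 4 control arrays) and the dimmer Myo1e probe (3 of 4 CCH and 3 of 4 control arrays). The 75th percentile of the processed signal ran from 642 to 882 on the CCH arrays and from 563 to 700 on the control arrays, and 76.3% to 78.6% of spots on the CCH arrays and 76.7% to 79.9% on the control arrays were well above background. All 4 CCH arrays were on slide 2 and all 4 control arrays on slide 1, and the slides were scanned separately, so feed, slide and scan cannot be told apart in any difference given below. CCH replicate 1 stood apart from its group. On it 28.5% of all tested probes lay over 0.5 on the log2 scale from the median of the other CCH arrays, against 7.63% to 9.15% for the other CCH arrays and 9.36% to 12.1% for the control arrays. Values without it are given beside many of the members it moved. CCH replicates 2 and 4 were low in choroid plexus markers, whose score, the mean over markers centred on their own mean over arrays, was 1.08, -3.11, 1.38 and -3.29 on CCH replicates 1 to 4 and 1.93, -0.62, 1.62 and 1.02 on control replicates 1 to 4. Of the other marker lists, oligodendrocyte markers were higher in CCH for 11 of 12 (median log2 difference 0.40) and microglia markers lower for 10 of 12 (median -0.25), while the medians of astrocyte, endothelial and pericyte, CA pyramidal, dentate granule and interneuron markers lay between -0.07 and 0.16. All 8 CA pyramidal and 4 dentate granule markers of the array, the neurons that define the labelled tissue, passed the detection filter. The part of any of these cell types in the motor genes' values was not tested, also where a value without CCH replicates 2 and 4 is given. In pieces of tissue fewer cells of a type and less RNA per cell cannot be told apart.

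Levels are given as the log2 signal relative to the array's 75th percentile, so 1 unit is a doubling and a level belongs to its probe and is not comparable with that of another probe. Differences are CCH minus control on the same log2 scale with the standard error (SE) of limma's moderated fit, and p-values were adjusted over all 31618 tested probes, with a call at an adjusted p under 0.05. Of the 64 motor probes 1 was called, the Myo5a probe, which was lower in CCH; over all tested probes 0.174% were called, 0.0759% higher and 0.098% lower. An unadjusted p under 0.05 was reached by 6 motor probes, 2 higher and 4 lower, against 15.4% of all tested probes, and the CCH and control arrays did not overlap in 5 motor probes, 1 above and 4 below the controls, against 11.3% of all tested probes, 6.59% above and 4.7% below. Taking the brightest probe of each gene, 22 motor genes were higher and 24 lower in CCH, with a median difference of -0.02, against 5175 higher and 4566 lower and a median of 0.02 over all 9741 tested named genes. The difference was within 0.2 of zero for 28 of 46 motor genes (60.9%), as for 63.9% of all named genes.

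By family, 4 myosin genes were higher and 8 lower (median -0.11), 10 kinesin genes were higher and 10 lower (median -0.04), and 8 dynein genes were higher and 6 lower (median 0.02). The dynein genes lay closest to zero, with 13 of 14 (92.9%) within 0.2. The 95% intervals lay within 0.5 of zero for 12 of 14 dynein genes, 12 of 20 kinesin genes and 3 of 12 myosin genes, against 56.3% of all named genes. For most myosin genes the interval reached past 0.5, so a difference of that size could have gone undetected with 4 arrays per group. An interval within 0.5 does not mean that such a difference would have been called in the other families. The oligodendrocyte marker Mobp, at 0.52 ± 0.10 (SE), was not called (adjusted p = 0.0723 in limma's fit).

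**Figure D1:**
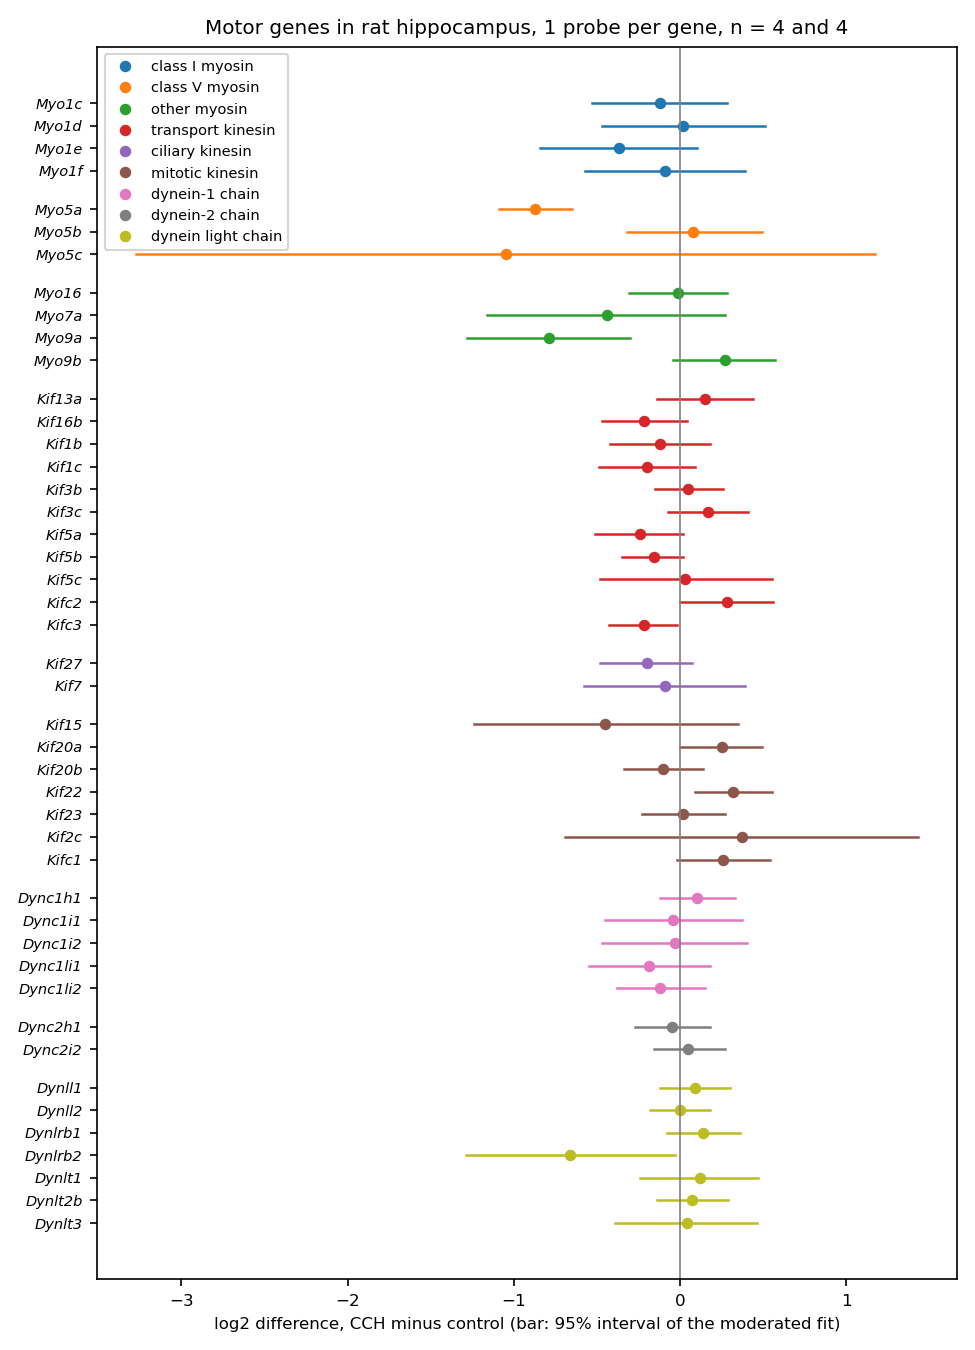
Log2 difference, CCH minus control, of the motor genes, 1 of which is not drawn, on their brightest probes, with genes down the page grouped by class and colour, points for the estimate and bars for the 95% interval of the moderated fit (n = 4 CCH and 4 control arrays). The bar of Myo5a at -0.87 lies wholly below zero, as do those of Myo9a, Kifc3 and Dynlrb2. The bar of Kif22 lies wholly above zero, and that of Kif20a starts at 0.00. The bars of the dynein genes other than Dynlrb2 cross zero and, save that of Dync1li1 (-0.55 to 0.18), lie within 0.5 of zero. Myo5c has the widest bar.

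Myo5a encodes the class V myosin heavy chain that carries vesicles and endoplasmic reticulum along actin, best known for melanosome transport in mice and for supplying the spines of Purkinje cells. Its probe read 3.33, 3.64, 3.35 and 3.51 on CCH replicates 1 to 4 and 4.29, 4.36, 4.27 and 4.38 on control replicates 1 to 4. Every CCH array lay below every control array, and the gap between the groups was wider than the range within either. Myo5a fell in CCH by 0.87 ± 0.10 on the log2 scale (SE, n = 4 per group), to 0.55 of the control level (95% interval of the difference -1.09 to -0.65, adjusted p = 0.0276 in limma's fit), and ranked 16 by p among all tested probes. The size of the difference was between -0.93 and -0.83 with any 1 array left out, but the call was not kept by most of these smaller fits. The adjusted p was 0.0337 without CCH replicate 1, and 0.0698, 0.0838 and 0.0901 without CCH replicates 2, 3 and 4. It was 0.119, 0.111, 0.116 and 0.102 without control replicates 1 to 4, and those 7 fits called 0 or 1 of all tested probes. With the choroid-poor CCH replicates 2 and 4 both left out the difference was -0.99 (adjusted p = 0.211). Those were the highest CCH arrays of Myo5a, so leaving them out makes the difference larger whatever the cause. Myo5a had a single probe, so no other probe reports the same gene.

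The other class V heavy chains did not pass the test. Myo5b, which recycles receptors to the membrane with RAB11, read 1.51, 0.79, 0.74 and 0.93 on CCH replicates 1 to 4 and 0.86, 1.08, 0.73 and 0.97 on control replicates 1 to 4. The groups overlapped and CCH replicate 1 was the highest of all arrays. The difference was 0.08 ± 0.18 (SE, 95% interval -0.32 to 0.49) and -0.09 without CCH replicate 1. Myo5c, the class V myosin of glandular epithelia, was close to background, at -4.73, -7.76, -4.68 and -7.21 on CCH replicates 1 to 4 and -3.79, -7.38, -4.19 and -4.82 on control replicates 1 to 4. Its lowest arrays were CCH replicates 2 and 4 and control replicate 2, which also had the lowest choroid scores in their groups. The difference was -1.05 ± 0.97 (SE, adjusted p = 0.663), -0.42 with normexp background correction and 0.34 without CCH replicates 2 and 4. Leaving out the lowest CCH arrays raises the difference whatever the cause.

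Among 16 tested genes of class V myosins and their vesicle partners, 7 were higher and 9 lower (median -0.03). The list includes 5 of the motor genes already counted. The 1 called was Myo5a itself, against 0.174% of all tested probes, so the list adds no other call. Rab11fip2, an adaptor between RAB11 and Myo5b, was at -0.51 ± 0.22 (SE, adjusted p = 0.316), with CCH arrays from -3.77 to -2.85 and control arrays from -2.85 to -2.36. Sytl4 was at -0.78 and Myrip at -0.21, both effectors of RAB27. The cargo GTPases were at 0.30 ± 0.33 for Rab27a, 0.23 ± 0.20 for Rab10, 0.09 for Rab3a and Rab8a, -0.04 for Rab11a and -0.12 for Rab27b (SE), and none passed the test. CCH replicate 1 was the highest array for Rab10, at 2.82 against 1.92 to 1.99 on the other CCH arrays. It was also the highest for Rab27a, at -2.03 against -3.68 to -2.91. The light chains that Myo5a shares with dynein, Dynll1 and Dynll2, were at 0.09 ± 0.09 and 0.00 ± 0.08 (SE).

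The promoter of Myo5a is shown because it belongs to the 1 called gene. Windows from 250 bases before to 50 bases after the annotated start, 300 bases each, came from RefSeq (build GRCr8) and were matched for 36 of the 46 motor genes. Dync2h1, Dynll2, Dynlrb1, Dynlt3, Kif5a, Kif7, Kifc2, Kifc3 and Myo1d were among those not matched. Capitals mark the GC box GGGCGG on either strand (CCGCCC when read on the other), a word bound by SP-family factors.
Myo5a, chr8:84692699-84692998, plus strand: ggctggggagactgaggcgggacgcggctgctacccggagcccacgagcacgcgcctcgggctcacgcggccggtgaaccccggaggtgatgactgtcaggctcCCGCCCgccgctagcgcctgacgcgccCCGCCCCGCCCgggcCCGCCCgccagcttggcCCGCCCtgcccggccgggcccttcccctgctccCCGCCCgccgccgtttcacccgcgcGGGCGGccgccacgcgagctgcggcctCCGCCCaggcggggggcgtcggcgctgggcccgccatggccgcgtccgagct
The GC box occurred 8 times in this window, in places with overlapping copies. At least 1 copy was present in 27 of 36 motor gene windows (75%) and in 34.9% of all 27457 windows, and most of these motor genes were not called.

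Myo9a, a class IX myosin, came next by p. Its probe read -2.32, -3.04, -3.03 and -3.32 on CCH replicates 1 to 4 and -1.80, -2.25, -2.29 and -2.21 on control replicates 1 to 4. All CCH arrays lay below all control arrays, with replicate 1 the highest in both groups. The difference was -0.79 ± 0.22 (SE, 95% interval -1.28 to -0.30), which did not pass the adjustment (adjusted p = 0.145). Without CCH replicate 1 it was -0.99 and passed (adjusted p = 0.0354), and with arrays weighted by their quality it was -0.95 and passed (adjusted p = 0.0219). Those settings called 2.34% and 4.3% of all tested probes. Without CCH replicates 2 and 4, the lowest CCH arrays of Myo9a, it was -0.54. Leaving out the lowest arrays brings the difference of Myo9a nearer to zero whatever the cause. Its relative Myo9b was at 0.27 ± 0.13 (SE, adjusted p = 0.394), with the CCH arrays between -1.40 and -0.90 and the control arrays between -1.44 and -1.13.

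Because the feed is given with antioxidant ability in mind, the promoters were also searched on both strands for TGACNNNGC, the core of the antioxidant response element that NRF2 binds. It was found in 5 of 36 motor gene windows (13.9%), those of Myo9a, Myo16, Myo1e, Dync1li1 and Dync1li2, and in 12.2% of all windows. The window of Myo9a is shown, with the match in capitals, here on the opposite strand. The window of Myo5a held no match.
Myo9a, chr8:69044764-69045063, plus strand: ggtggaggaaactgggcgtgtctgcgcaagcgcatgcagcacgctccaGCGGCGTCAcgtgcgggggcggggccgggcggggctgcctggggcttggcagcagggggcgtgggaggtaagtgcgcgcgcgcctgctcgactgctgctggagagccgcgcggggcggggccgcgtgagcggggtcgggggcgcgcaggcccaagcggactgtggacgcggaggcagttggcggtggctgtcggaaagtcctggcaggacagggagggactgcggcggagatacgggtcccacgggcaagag

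No other myosin passed the test. Class I myosins are short, membrane-linked motors, of which 2 were higher and 3 lower (median -0.09). Myo1c, which inserts glucose transporters and serves hair cells, was at -0.12 (0.01 without control replicate 1), and Myo1d at 0.02 (-0.18 without CCH replicate 1). Myo1f, a myosin of immune cells, was at -0.09 ± 0.21 (SE). Beside it, 10 of 12 microglia markers were lower, 1 of them called, against 0.098% of all tested probes called lower. The level of Myo1f ran from -0.67 to 0.21 in CCH and from -0.36 to 0.33 in control. The part of microglia in its value was not tested. Myo1e was at -0.37 ± 0.21 on its brighter probe, or -0.21 without CCH replicate 1, and at -0.07 ± 0.52 on the dimmer one (SE). Myo16, a brain myosin that binds protein phosphatase 1, was at -0.01 ± 0.13 (SE). Myo7a, the motor of hair cells and pigment epithelium, read -2.88, -4.28, -3.90 and -4.13 on CCH replicates 1 to 4 and -2.92, -3.68, -3.23 and -3.59 on control replicates 1 to 4. CCH replicate 1 was at the level of the highest control and the other CCH arrays lay below all controls. The difference was -0.44 ± 0.31 (SE, adjusted p = 0.554), -0.75 without CCH replicate 1 and -0.04 without CCH replicates 2 and 4. CCH replicates 2 and 4 were the lowest arrays of Myo7a, so leaving them out brings its difference nearer to zero whatever the cause. Of 16 tested muscle and non-muscle myosin II chains and their kinases 4 were higher and 12 lower (median -0.09), with 0 called. An unadjusted p under 0.05 was reached by 1 of them, the light chain kinase Mylk at -0.41 ± 0.16 (SE), against 6.59% of all tested probes in that direction. Myl3 was at 0.79 ± 0.36 and Myh14 at -0.14 ± 0.09 (SE), while Myh10, the main non-muscle myosin II of neurons, was at 0.02.

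**Figure D2:**
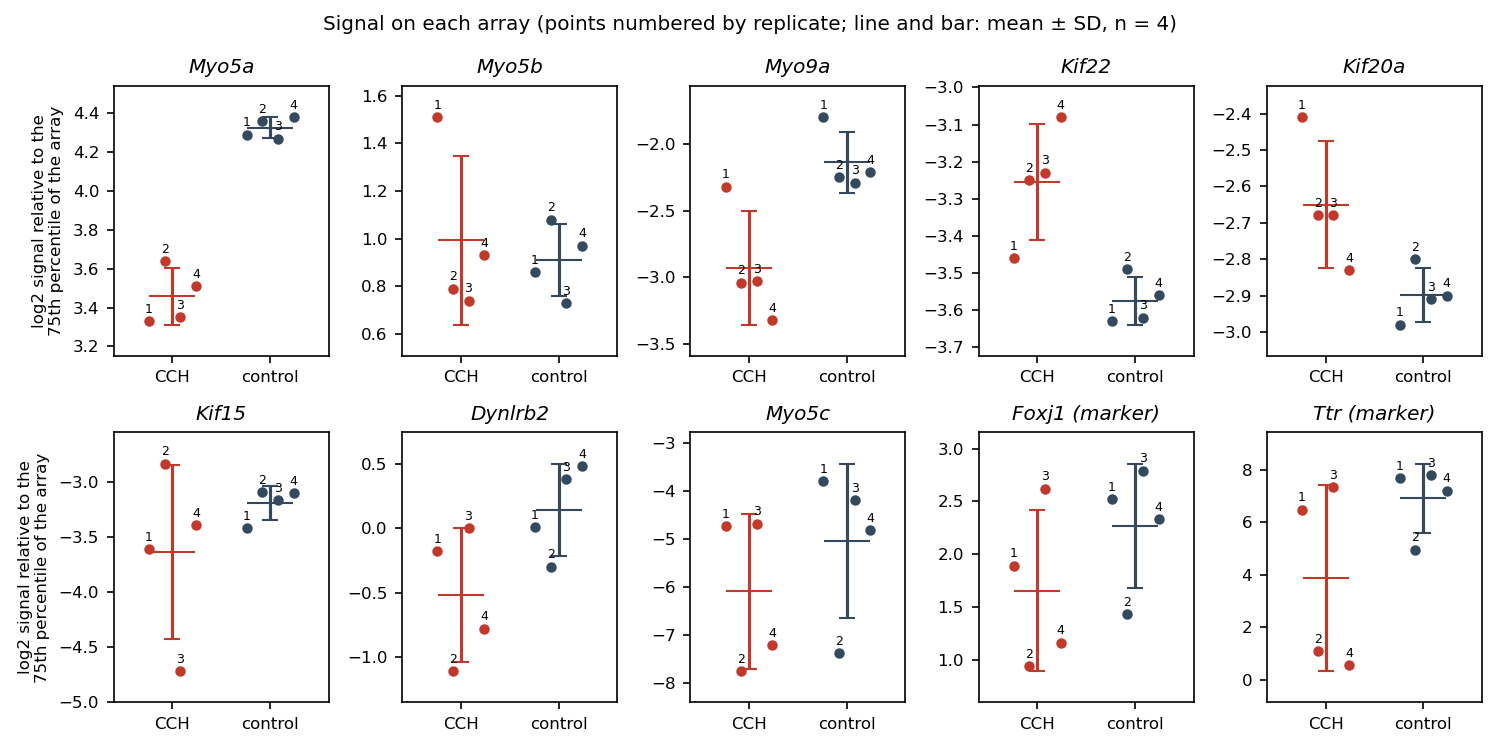
Log2 signal relative to the 75th percentile of the array, on the vertical axes, of 8 motor genes and of the markers Foxj1 and Ttr, with CCH arrays left and control arrays right; points are arrays numbered by replicate, and the line and bar are the mean ± SD (n = 4). The groups are apart in Myo5a (3.33 to 3.64 in CCH, 4.27 to 4.38 in control), Myo9a and Kif22, and CCH replicates 2 and 4 lie low together in Dynlrb2, Myo5c, Foxj1 and Ttr.

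Mitotic kinesins build and move the spindle and the cleavage furrow, and in the adult hippocampus dividing cells are few. Of the 7 on the array 5 were higher and 2 lower in CCH (median 0.25), none was called, and 2 reached an unadjusted p under 0.05, both higher, against 8.79% of all tested probes in that direction. Kif22, a chromokinesin that pushes chromosome arms to the spindle equator, read -3.46, -3.25, -3.23 and -3.08 on CCH replicates 1 to 4 and -3.63, -3.49, -3.62 and -3.56 on control replicates 1 to 4. Every CCH array was above every control array, by little for CCH replicate 1. The difference was 0.32 ± 0.10 (SE, adjusted p = 0.182), 0.10 with normexp, and 0.39 when arrays were weighted by quality, which was the 1 setting in which it passed (adjusted p = 0.0348).

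Kif20a, which acts at the central spindle in cytokinesis, read -2.41, -2.68, -2.68 and -2.83 on CCH replicates 1 to 4 and -2.98, -2.80, -2.91 and -2.90 on control replicates 1 to 4. The groups overlapped, since CCH replicate 4 lay below control replicate 2. The difference was 0.25 ± 0.11 (SE, adjusted p = 0.320) and 0.09 with normexp. Normexp, also given for Kif22, moved the median of all tested probes to -0.07 from 0.03. Kifc1, a minus-end motor that gathers spindle poles, was at 0.26 ± 0.12 and 0.31 ± 0.14 on its probes (SE, adjusted p = 0.363 and 0.354), and the dimmer probe was at 0.05 with normexp. Kif2c, a microtubule depolymerase of the centromere, was at 0.37 ± 0.46 (SE), which rested on CCH replicate 1 at -4.43 against -6.12 to -5.79 on the other CCH arrays and -7.03 to -5.33 on the control arrays. Without CCH replicate 1 it was at -0.01, and with normexp at -0.07.

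Kif23, a subunit of centralspindlin, was at 0.02 ± 0.11 (SE; -0.09 with normexp), and Kif20b, a cytokinesis motor also used by migrating neurons, at -0.10 ± 0.10 (SE). Kif15, a spindle motor that also limits axon growth, read -3.61, -2.83, -4.72 and -3.39 on CCH replicates 1 to 4 and -3.42, -3.09, -3.16 and -3.10 on control replicates 1 to 4. CCH replicate 3 was the lowest array and CCH replicate 2 the highest. The difference was -0.45 ± 0.35 (SE) and -0.09 without CCH replicate 3. Of 12 dividing-cell markers that are not kinesins 10 were higher and 2 lower (median 0.18), with 0 called. An unadjusted p under 0.05 was reached by 1 of them, Bub1 at 0.19 ± 0.08 (SE), against 8.79% of all tested probes in that direction. The score of these markers was 0.11, -0.03, 0.12 and 0.10 on CCH replicates 1 to 4 and 0.00, -0.02, -0.09 and -0.18 on control replicates 1 to 4. Their part in the kinesin values was not tested.

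A feature of the mitotic kinesins that their choice did not use lies in their promoters. Late cell cycle genes often carry the cell cycle homology region, TTTGAA or its variant TTTAAA, which the DREAM and MuvB complexes bind in human and mouse cells. On either strand TTTGAA was found in the windows of 5 of 7 mitotic kinesins, against 18.1% of all windows, and TTTAAA in those of the other members, Kif20a and Kif2c, against 13.5% of all windows. Either word was thus present in 7 of 7 mitotic kinesin windows, in 1 of 29 other motor gene windows (Myo7a) and in 27.9% of all windows. The CCAAT box, which often accompanies it, was found on either strand in 5 of 7, those of Kif20a, Kif20b, Kif22, Kif23 and Kifc1, against 37.7% of all windows. The stretch of 60 bases around the word nearest the start is printed for each, since these genes share it whether or not they differed between the feeds. Capitals mark the word, on whichever strand it lies, and Kif20b has adjoining copies.
Kif22, chr1:191080862-191080921, minus strand: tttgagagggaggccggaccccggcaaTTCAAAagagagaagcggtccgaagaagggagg
Kif20a, chr18:26504323-26504382, plus strand: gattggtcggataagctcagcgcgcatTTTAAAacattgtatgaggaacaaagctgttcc
Kifc1, chr20:5000880-5000939, plus strand: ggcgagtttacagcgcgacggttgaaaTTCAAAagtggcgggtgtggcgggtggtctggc
Kif2c, chr5:135899199-135899258, minus strand: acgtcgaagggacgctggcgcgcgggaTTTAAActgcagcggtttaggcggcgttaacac
Kif23, chr8:71320631-71320690, minus strand: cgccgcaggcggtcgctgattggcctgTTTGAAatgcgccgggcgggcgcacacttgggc
Kif20b, chr1:241840990-241841049, plus strand: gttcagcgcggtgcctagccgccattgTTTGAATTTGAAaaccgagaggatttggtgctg
Kif15, chr8:131479331-131479390, plus strand: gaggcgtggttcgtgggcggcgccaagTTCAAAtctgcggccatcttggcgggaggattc

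Of the 11 transport kinesins 5 were higher and 6 lower (median -0.12), and none was called. The conventional kinesin-1 heavy chains carry vesicles and mitochondria along axons. Kif5a, the neuronal isoform, was at -0.24 ± 0.12 (SE, adjusted p = 0.370), and Kif5c at 0.03 ± 0.22 (SE; -0.10 without control replicate 3). Kif5b, the isoform of all cells, read 4.86, 4.82, 4.79 and 4.72 on CCH replicates 1 to 4 and 5.03, 5.04, 4.89 and 4.89 on control replicates 1 to 4 on its brightest probe. The groups were apart there, by the distance between CCH replicate 1 and the lowest controls, but the difference was only -0.16 ± 0.08 (SE, adjusted p = 0.390). Its other probes were at -0.10 ± 0.14 (0.03 without CCH replicate 1) and 0.07 ± 0.08 (SE). Of 13 tested kinesin light chains and kinesin adaptors 6 were higher and 7 lower (median -0.00). Of these, 0 were called, against 0.174% of all tested probes, and 0 had an unadjusted p under 0.05, against 15.4%. The lowest p among them belonged to Kidins220 at 0.20, Fez2 at -0.20 and the mitochondrial adaptor Rhot1 at 0.18, and the light chain Klc1 was at -0.01 ± 0.09 (SE). Rhot1 read 1.79 on CCH replicate 1 and 1.34 to 1.38 on the other CCH arrays.

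The kinesin-2 subunit Kif3b was at 0.05 ± 0.09 on its brightest probe and at 0.15 ± 0.09 and -0.37 ± 0.23 on the others (SE). The last of these read -0.59, 0.21, 0.50 and 0.47 on CCH replicates 1 to 4 and 0.53, 0.61, 0.35 and 0.59 on control replicates 1 to 4, and without the single low array, CCH replicate 1, its difference was -0.13. Kif3c, a partner used in neurons, was at 0.17 ± 0.11 (SE). The vesicle and mitochondrial motor Kif1b was at -0.12 and -0.09 on its probes (-0.21 and -0.18 without CCH replicate 1) and the dense-core vesicle motor Kif1c at -0.20 ± 0.13 (SE). Kif16b, which places early endosomes, was at -0.22 ± 0.11 and -0.12 ± 0.18 (SE). Kif13a, a carrier of endosomes, was at 0.15, 0.03 and -0.25 on its probes from the brightest to the dimmest, or 0.25, 0.18 and -0.36 without CCH replicate 1.

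The minus-end kinesins of differentiated cells differed from each other in sign. Kifc2, a neuronal transporter, read 1.88, 1.82, 1.96 and 2.09 on CCH replicates 1 to 4 and 1.47, 1.95, 1.60 and 1.60 on control replicates 1 to 4. Control replicate 2 lay within the CCH range and the other controls below it. The difference was 0.28 ± 0.12 (SE, adjusted p = 0.325). Kifc3, which works at cell junctions and the Golgi, read -0.04, 0.05, 0.03 and 0.15 on CCH replicates 1 to 4 and 0.25, 0.43, 0.19 and 0.21 on control replicates 1 to 4 on its brighter probe. All CCH arrays lay below all control arrays, and the difference was -0.22 ± 0.09 (SE, adjusted p = 0.290). The dimmer probe of Kifc3 was at 0.09 ± 0.12 (SE).

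Among the dynein genes all 5 chains of the cytoplasmic motor, dynein-1, lay within 0.2 of zero on their brightest probes. The heavy chain gene Dync1h1 was at 0.10 ± 0.10 and 0.02 ± 0.09 on its probes, and the light intermediate chains, which hold the cargo adaptors, at -0.19 ± 0.16 for Dync1li1 and at -0.12 ± 0.12 (-0.03 without CCH replicate 1) and 0.02 ± 0.08 for Dync1li2 (SE). Dync1i1, the intermediate chain of neurons, read 4.53, 5.34, 5.19 and 5.22 on CCH replicates 1 to 4 and 5.07, 5.17, 4.94 and 5.27 on control replicates 1 to 4. Only CCH replicate 1 was apart, and the difference was -0.04 ± 0.18 (SE), or 0.14 without that array. Of the widely expressed intermediate chain Dync1i2, the brighter probe was at -0.03 ± 0.19 and the other at 0.24 ± 0.16 (SE), or 0.15 and 0.08 without CCH replicate 1. Of 22 tested genes of dynactin, LIS1 and dynein adaptors 15 were higher and 7 lower (median 0.05), with 0 called, against 0.174% of all tested probes. The difference was within 0.2 of zero for 21 of the 22, against 63.9% of all named genes. The exception was Capzb, the capping protein subunit of the dynactin filament and of actin ends, at 0.33 ± 0.10 (SE, adjusted p = 0.174). It read 2.83, 2.66, 2.47 and 2.58 on CCH replicates 1 to 4 and 2.38, 2.32, 2.21 and 2.29 on control replicates 1 to 4, with no overlap.

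Dynein light chains were higher for 6 and lower for 1 of 7 (median 0.07), all but 1 within 0.2. Dynlrb1 was at 0.14 ± 0.10, Dynlt1 at 0.12 ± 0.15 (-0.02 without CCH replicate 1) and Dynlt3 at 0.04 ± 0.12 on its dimmer probe and 0.04 ± 0.19 on its brighter one (SE), or 0.11 and 0.23 without CCH replicate 1. The exception was Dynlrb2, the roadblock light chain enriched in ciliated cells, which read -0.18, -1.11, 0.00 and -0.78 on CCH replicates 1 to 4 and 0.01, -0.30, 0.38 and 0.48 on control replicates 1 to 4. CCH replicates 2 and 4 were the lowest arrays, and control replicate 2 lay below CCH replicates 1 and 3. The difference was -0.66 ± 0.28 (SE, adjusted p = 0.302). Foxj1, the factor that switches on motile cilia genes, stood at 1.89, 0.94, 2.62 and 1.16 on the same CCH arrays and at 2.52, 1.43, 2.79 and 2.33 on the control arrays, with the same arrays low. Of the 12 tested choroid plexus and ependyma markers all were lower in CCH (median -2.07), with 0 called. Without CCH replicates 2 and 4, left out after their scores were seen, Dynlrb2 was at -0.23. Those were also the lowest arrays of Dynlrb2 itself, so leaving them out brings its difference nearer to zero whatever the cause. The part of these cell types in the value of Dynlrb2 was not tested.

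Of 16 tested genes of axonemal dynein and intraflagellar transport 5 were higher and 11 lower (median -0.07), with 0 called and 2 at an unadjusted p under 0.05, both lower, against 6.59% of all tested probes in that direction. They were Dnal1 at -0.61 ± 0.19 (SE, adjusted p = 0.182) and Dnali1 at -0.46 ± 0.19 (SE, adjusted p = 0.296), both subunits of the motile axoneme. Dnali1 was low on CCH replicates 2 and 4, at -0.66 and -0.31, while CCH replicates 1 and 3 read -0.03 and 0.09 and the control arrays between -0.13 and 0.40. Dnal1 was lowest on CCH replicate 1 at -4.29, with the other CCH arrays between -3.60 and -3.41 and the controls between -3.14 and -2.98. Dynein-2 returns cargo from the ciliary tip. Its heavy chain gene Dync2h1 was at -0.05 ± 0.10, the intermediate chain gene Dync2i2 at 0.05 ± 0.10 and its light chain gene Dynlt2b at 0.07 ± 0.09 (SE). The ciliary kinesins were Kif27 at -0.20 ± 0.12 and -0.22 ± 0.31 and Kif7, a regulator of hedgehog signalling, at -0.09 ± 0.21 (0.13 without CCH replicate 1) and 0.21 ± 0.11 on their probes (SE).

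The tracks themselves were also measured. Of 21 tested tubulin and microtubule-associated protein genes 16 were higher and 5 lower (median 0.15), with 0 called and 5 at an unadjusted p under 0.05, all higher, against 8.79% of all tested probes in that direction. They were the doublecortin-like kinase Dclk1 at 0.28 ± 0.11, the kinesin-1 activator Map7 at 0.21 ± 0.08, Tubb4a at 0.23 ± 0.09, the end-binding protein Mapre3 at 0.33 ± 0.14 and Tubb6 at 0.22 ± 0.09 (SE, adjusted p between 0.272 and 0.312 in limma's fit). Tubb4a is rich in oligodendrocytes, whose markers were higher for 11 of 12, and their part in its value was not tested. Tau (Mapt) was at -0.03 ± 0.09 and Map2 at -0.08 ± 0.21 (SE).

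Different probes of a gene gave a second look at CCH replicate 1. Of the 15 motor genes with several probes 7 had the same sign on all of them and 8 did not, and the gap between probes reached 0.52 in Kif3b and 0.40 in Kif13a. CCH replicate 1 was the farthest array of its group for 35 of 64 motor probes, and for 22 of them it lay over 0.5 from the median of the other CCH arrays, against 4 to 6 probes for the other CCH arrays and 3 to 7 for the control arrays. Its distance had the same sign on all probes of 8 of the 15 genes and opposite signs in 7. Relative to the mean of CCH replicates 2 to 4, in the same-sign genes it was at -0.24, -0.98 and -0.09 for Kif3b, and at 0.32 and 0.55 for Kif27. Among the others it was 0.66 higher on one Dync1i2 probe and at -0.74 on the other, at -0.89 and 0.19 for Kif7, at -0.40, -0.62 and 0.45 for Kif13a, and at -0.65 and 1.38 for Myo1e. With it left out, the median SD of the motor probes in CCH was 0.118 in place of 0.198, against 0.14 in control. The cause was not tested.

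**Figure D3:**
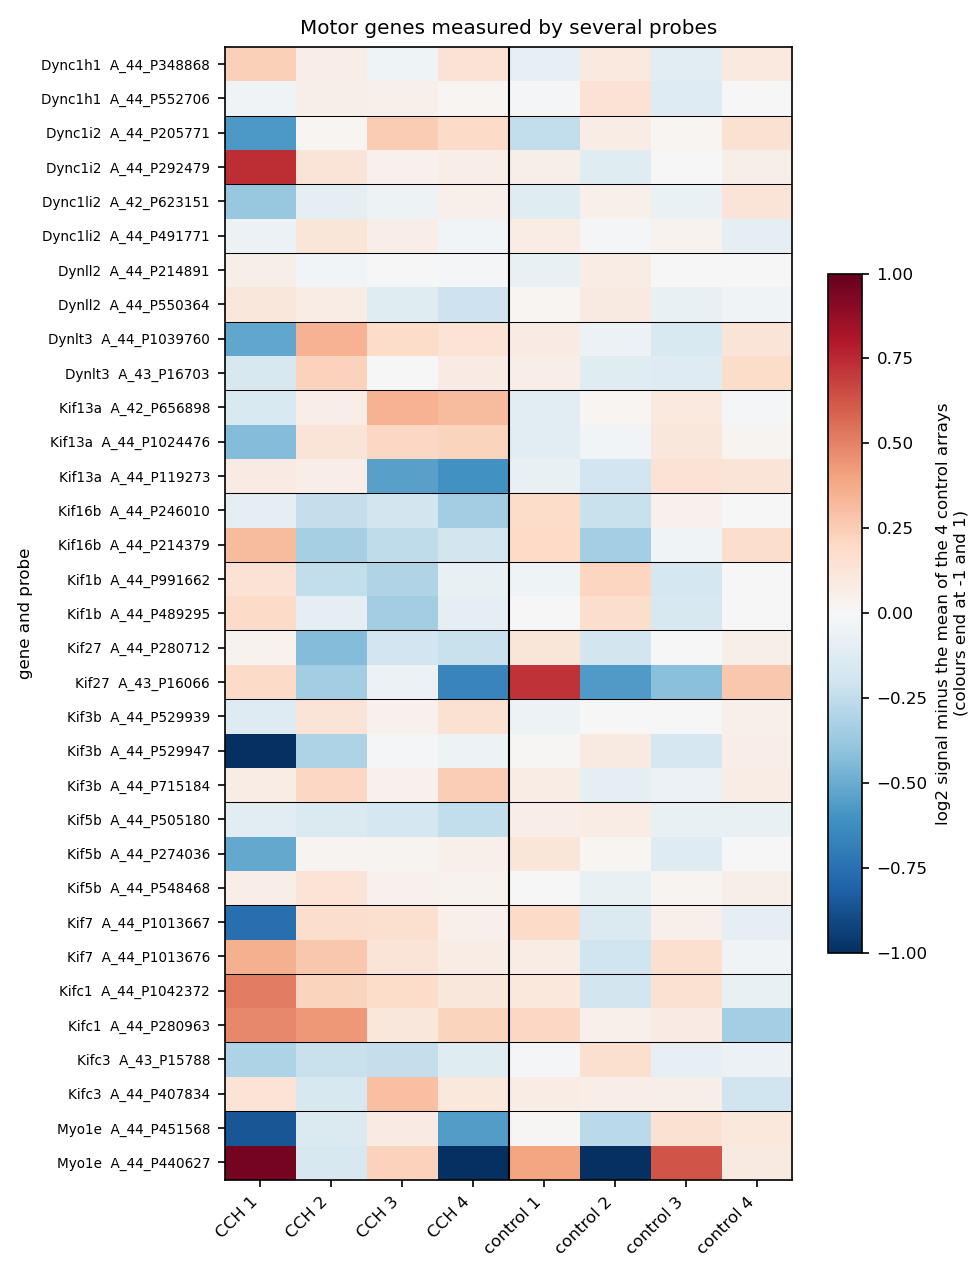
Heat map of the log2 signal minus the control mean for the 33 probes of the 15 motor genes with several probes (rows, with probes of a gene next to each other) on the CCH arrays, left, and the control arrays, right; colours end at -1 and 1. The column of CCH replicate 1 is the most strongly coloured, and neighbouring probes of Dync1i2, Kif7 and Myo1e take opposite colours in it.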

How the data were processed

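Total RNA of 8 hippocampi was labelled with Cy3 and hybridised to 1-colour Agilent arrays, per the labels' protocols. The authors extracted spots with Agilent Feature Extraction 9.5, per the submitters' processing notes, and per the file headers they deposited a background-subtracted intensity on a linear scale, without scaling between arrays. The deposited series value table held the same intensity after rounding (largest relative difference 0.00498) and was not used further. Groups follow titles and treatment labels; the free-text descriptions, which name a lesion model and injections, contradict these and were not used.

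Values were set on a log2 scale relative to the 75th percentile of each array's 43379 spots that are not controls, spots of a probe were averaged, and spots with an outlier flag were left missing. Probes well above background on at least 4 of 8 arrays and with at least 3 values per group were tested with limma 3.58.1 (R 4.3.3; lmFit and eBayes), unpaired, with Benjamini-Hochberg adjustment over 31618 probes and a threshold of 0.05. A gene is represented by its brightest probe unless stated. Gene names came from RefSeq (GRCr8) by accession and covered 15184 probes (37%). Promoter windows and their coordinates are RefSeq's on GRCr8, 1 per gene.

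Motor genes and lists were chosen with earlier results of these data known. Named first were, per direction, the 12 motor genes with the smallest p, a set of transport, spindle and dynein genes, dim probes, probes with an array far from its group, and of each related list the called members and up to 3 with the smallest p. The other motor genes were added, save 1 that counts in every total but is not reported here, and Rab3a, Rab8a, Rab10, Rab11a, Rab27a, Rab27b, Klc1, Myh10, Tubb6, Mapre3, Mapt and Map2 after their values were seen. The fit was tested on simulated data. Replicates are separate rats by the labels' numbering. Alternatives were normexp background correction (offset 50, on median spot and background signals, since no mean signal was used), quantile normalization, median scaling, a percentile over probes detected throughout, no or a stricter detection filter, outlier spots kept, a replicate block, trended and robust eBayes, array weights, the mean of a gene's probes, and each array left out.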

Additional observations from a re-analysis of the deposited data

Results flagged for a closer look

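Of 128 sets of 4 arrays (64 probes in 2 groups), 9 held an array whose gap to the nearest other array was large for the range of its group by Dixon's test at 95%, a rule that chance meets in about 1 of 20 sets. CCH replicate 1 was that array in 5 of the 9. It stood high for Dynlt1, at 2.99 against 2.44 to 2.49 on the other CCH arrays, and for a Dync1i2 probe, at 0.55 against -0.15 to -0.06. It stood low for a Kif7 probe, at -0.07 against 0.74 to 0.86, for a Kif13a probe, at -0.87 against -0.31 to -0.21, and for a Kif5b probe, at 0.69 against 1.23 to 1.25. None of these probes was called.

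CCH replicate 2 and control replicates 1, 2 and 4 were apart for 1 probe each, and the remaining arrays for none. CCH replicate 2 stood high for Dync1li1, at -3.59 against -4.11 to -4.05 on the other CCH arrays. Control replicate 1 stood high for Myo9a, at -1.80 against -2.29 to -2.21, control replicate 2 for Myo9b, at -1.13 against -1.44 to -1.39, and control replicate 4 stood low for the dimmer Kifc3 probe, at -4.34 against -4.08 to -4.06 on the other control arrays. Without control replicate 1 the remaining control arrays of Myo9a still lay above all CCH arrays, but by little. The lowest of them was at -2.29 and CCH replicate 1 at -2.32.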

How the results depend on the processing

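Myo5a was the 1 called motor probe, with 0 called higher and 1 lower, under normexp, quantile, median and detected-probe scaling, under no or a stricter detection filter, with outlier spots kept and with trended, robust eBayes (adjusted p from 0.0108 to 0.0457). With array weights 3 motor probes were called (1 higher, Kif22, and 2 lower, Myo5a and Myo9a), with a replicate block 0 (Myo5a adjusted p = 0.172), and without CCH replicates 2 and 4, a setting chosen after seeing the data, 0. Leaving out 1 array gave 0 to 2 calls, all lower. Over all tested probes the main 55 calls became 246 with normexp, 209 with detection on all 8 arrays, 215 with trended, robust eBayes, 1361 with array weights, 733 without CCH replicate 1, 29 without a detection filter, 0 with the block and 0 or 1 without any other array. The fits without an array have 1 sample fewer, and the other causes were not tested. The median difference of motor genes was -0.07 with normexp, which moved the median of all tested probes to -0.07 from a main value of 0.03, -0.05 without CCH replicates 2 and 4, and between -0.06 and 0.01 with 1 array left out. Same-numbered CCH and control arrays deviated together by a correlation of 0.15, 0.08, -0.00 and 0.25. Arrays of different numbers were not compared in this way, so these values cannot show whether the shared replicate numbers pair the rats. The planned slide block was not run, because each slide held 1 group. Low signal limits the probes not well above background on every array (Myo5c, Kif2c and the dimmer Kif27 and Myo1e probes), whose SEs ran from 0.31 to 0.97.

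Some differences changed sign with the setting, among them those of Kif2c (0.37) and Myo5c (-1.05). With normexp Dync1h1 was at -0.03 on its dimmer probe, Dync1i1 at 0.01, Dync1i2 at 0.01, Dync1li2 at -0.02 on its dimmer probe, Kif23 at -0.09, Kif2c at -0.07, Kif13a at -0.04 on its middle probe, Kifc3 at -0.08 on its dimmer probe and Myo1d at -0.11. With array weights Dynll2 was at -0.02, Dynlt1 at -0.00, Dync1i1 at 0.12, Dync1i2 at 0.11, Kif7 at 0.10, Kif23 at -0.04, Kif5b at 0.03 on its middle probe, Myo1d at -0.18 and Myo5b at -0.04. Dynll2 was at -0.01 with median or detected-probe scaling and at -0.02 with quantile normalization, where the dimmer Myo1e probe was at 0.01. Without CCH replicates 2 and 4 Myo5c was at 0.34.

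With each array left out in turn the sign also turned for the probes that follow, given with their lowest and highest difference. Among dyneins these were Dynll2 (-0.03 to 0.02, and -0.08 to 0.03 on the dimmer probe), Dynlt1 (-0.02 to 0.17), Dynlt3 (-0.02 to 0.11 on the dimmer probe and -0.07 to 0.23 on the brighter), Dync1h1 (-0.02 to 0.07 on the dimmer probe), Dync1i1 (-0.13 to 0.14), Dync1i2 (-0.12 to 0.15), Dync1li2 (-0.01 to 0.05 on the dimmer probe), Dync2h1 (-0.11 to 0.01) and Dync2i2 (-0.00 to 0.12). Among kinesins they were Kif27 (-0.41 to 0.02 on the dimmer probe), Kif7 (-0.18 to 0.13), Kif23 (-0.03 to 0.08), Kif2c (-0.01 to 0.58), Kif13a (-0.04 to 0.18 on the middle probe), Kif1b (-0.18 to 0.00 on the dimmer probe), Kif5b (-0.15 to 0.03 on the middle probe) and Kif5c (-0.10 to 0.19). Among myosins they were Myo1c (-0.22 to 0.01), Myo1d (-0.18 to 0.17), Myo1e (-0.44 to 0.35 on the dimmer probe), Myo1f (-0.22 to 0.07), Myo5b (-0.09 to 0.17) and Myo16 (-0.12 to 0.05).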
